A study of Mus musculus with 12 samples.

Results

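PKD2-null lymph node cells cultured with the peptide antigen were compared with cells of the same PKD2-null mice cultured without it. The comparison rests on 6 of the 12 arrays of the study, the unstimulated and the stimulated array of each of 3 null mice, paired by the animal named in the labels. All 12 cell suspensions came from lymph nodes of P14-TCR mice, which carry a transgenic T cell receptor specific for the gp33-41 peptide, and all were cultured for 4 h. Stimulated cells had gp33-41 at 62.5 ng/ml and unstimulated cells had none. The other 6 arrays held the same pair of cultures from each of 3 wild-type mice and served for comparison. The labels call one genotype wild type and the other PKD2 null. The allele that removes PKD2 and the age of the mice are not given in the sources used here, and the cells were not described as sorted, so every signal is that of a whole lymph node suspension. In such bulk samples, fewer cells of a type and less RNA per cell cannot be told apart. The study asks what PKD2 contributes to the change of gene expression that T cell receptor ligation brings about, and these 6 arrays show what takes place without it.

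Engagement of the T cell receptor activates the kinases Lck and Zap70, which assemble the Lat and Slp-76 scaffold and activate phospholipase C gamma. That enzyme makes inositol trisphosphate, which releases calcium and activates calcineurin and NFAT, and diacylglycerol, which recruits RasGRP and protein kinase C and so feeds the ERK and NF-kappaB pathways. Protein kinase D2, encoded by Prkd2, is the main protein kinase D of T lymphocytes and is activated by protein kinase C at the diacylglycerol branch. A naive CD8 T cell that meets its peptide first transcribes early transcription factors and cytokines, then builds up ribosomes and metabolism, and lowers the genes that keep it recirculating and quiescent.

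Prkd2 was low in every null array. Its signal (log2) was 6.33, 5.87 and 5.80 in unstimulated cells of null mice 1, 2 and 3 and 5.60, 5.47 and 5.36 in their stimulated cells. In wild-type cells it was 10.17, 10.34 and 9.99 without peptide and 8.16, 8.30 and 8.52 with it, so the genotypes did not overlap in either state. Where the probe set lies relative to the deleted part was not examined. Prkd3 (0.08 ± 0.096, limma adjusted p = 0.65) and Prkd1 (0.19 ± 0.092, adjusted p = 0.18) did not pass the test in stimulated null cells. The mean Prkd3 signal in null cells was 9.44 without and 9.52 with peptide. In wild-type cells Prkd3 changed by -0.45 (adjusted p = 0.0047). The difference of 0.53 (95% interval 0.22 to 0.83) was not called (adjusted p = 0.23). Prkd1, at means of 3.55 and 3.73 in null cells, lay below the array medians. Values after ± are standard errors of the fitted log2 change with n = 3 null mice, unless SD is named. They rest on a spread pooled over the mice of both genotypes, so they do not show the spread among null mice alone.

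The null suspensions held markers of T cells and of other cells. The mean signal (log2) of 5 T cell markers (Cd8a, Cd8b1, Cd3e, Cd3g and Trat1) was 9.84 to 10.31 in unstimulated and 9.73 to 10.13 in stimulated null cells. Only Cd8a and Cd8b1 among them are particular to CD8 cells. With peptide Cd8a changed by 0.18 and Cd8b1 by -1.11 in null cells. The 11 of 12 listed B cell markers that were measured averaged 9.16 to 9.90 in unstimulated null cells, above the 8.73 to 8.81 of unstimulated wild-type cells, and 8.59 to 9.36 in stimulated null cells against 8.16 to 8.31 in wild type. Null mouse 2 stood apart, with the highest B cell value (9.90 and 9.36) and the lowest T cell value (9.84 and 9.73) of the null mice in both states. Plasma cell markers were also higher in unstimulated null cells (8.04 to 8.74 against 7.55 to 7.75). The 11 of 12 myeloid and dendritic cell markers averaged 6.61 to 7.17 in unstimulated and 6.29 to 6.84 in stimulated null cells, and the 4 of 6 NK cell markers 6.20 to 6.91 and 6.26 to 6.91. The 8 stromal (4.21 to 4.38) and 3 of 5 erythroid markers (3.94 to 4.30) stayed below the array medians of 4.66 to 4.72 in null cells. Salivary gland markers, 6 of 7 measured, varied between 4.52 and 6.57 in null arrays and between 5.93 and 9.46 in wild-type arrays. The part of these cell proportions in the results was not tested. The counts over all genes, the count of differing genes and the values of Ifng and its targets are also given without null mouse 2 below.

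Peptide changed the expression of a large share of genes in the absence of PKD2. A gene counted as called at a Benjamini-Hochberg adjusted two-sided p under 0.05 in limma, with the mouse as a block, over 45037 probe sets. Of 18193 genes, 2429 rose in null cells (13.4%) and 3896 fell (21.4%). Of these 6325 genes, 6322 moved the same way in all 3 null mice. They were called on these same changes, so the agreement is not a separate result. The rise was at least 1 on the log2 scale, a doubling of signal, for 748 genes, and the fall at least 1 for 733. Without null mouse 2, 2144 genes rose and 3329 fell, of which 2064 and 3255 were also called with it. In wild-type cells 2966 genes rose (16.3%) and 4007 fell (22%). The median change over all genes was -0.02 in null and 0.014 in wild-type cells.

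The leading rises in null cells were secreted proteins, surface receptors and regulators of activated CD8 T cells. Xcl1, the chemokine lymphotactin, had signals (log2) of 5.20, 5.47 and 4.50 without and 13.74, 14.12 and 13.80 with peptide in null mice 1, 2 and 3. Every stimulated null array was thus far above every unstimulated one, and the change was 8.83 ± 0.17 (limma adjusted p = 1.6e-08). The unstimulated signals lay near the array medians, and whether they are above background was not examined, so no fold is given. Hivep3, which encodes a zinc finger protein, went from 5.42, 5.72 and 6.19 to 11.76, 11.28 and 12.46, a change of 6.06. Tnfsf14, the TNF family ligand LIGHT, went from 4.04, 4.61 and 4.15 to 10.10, 10.10 and 9.97, a change of 5.79. The groups did not overlap for either gene. Crtam, a receptor for a nectin-like adhesion molecule, rose by 5.72, Ccl4, a chemokine gene, by 5.55, and Cd160, a receptor for HVEM, by 5.52. Tbx21, the gene of the type 1 regulator T-bet, rose by 5.23, Spry1, a feedback inhibitor of ERK signalling, by 4.76, and Mir155hg, the host transcript of miR-155, by 4.31. The remaining members of the 12 largest rises, Il2, Ccl3 and Tnf, are described with the cytokines.

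The leading falls took in genes of the naive state. Rflnb, a filamin-binding protein, dropped from 12.10, 11.51 and 12.11 to 8.92, 8.33 and 8.60 in null mice 1, 2 and 3, a change of -3.29 ± 0.14 (limma adjusted p = 5.9e-07). Tdrp dropped from 11.86, 10.77 and 11.99 to 8.91, 7.97 and 8.88 (-2.95). Null mouse 2 was the lowest in both states for these genes, but its change of -3.18 for Rflnb and -2.80 for Tdrp was close to those of the other mice. Il7r, the interleukin-7 receptor chain that supports survival of naive T cells, dropped from 12.37, 12.10 and 12.38 to 9.86, 9.45 and 9.78 (-2.59). Pik3ip1, an inhibitor of PI3 kinase, changed by -2.57, Klf3, a transcriptional repressor, by -2.51, Dusp10, a phosphatase of p38 and JNK, by -2.39, and S1pr1, the receptor for exit from lymph nodes, by -2.34. The other 5 of the 12 largest falls were Fam78a (-2.74), Mturn (-2.69), the amino acid transporter gene Slc6a19 (-2.52), the centrosomal gene Cep97 (-2.41) and Als2cl (-2.39).

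**Figure D1:**
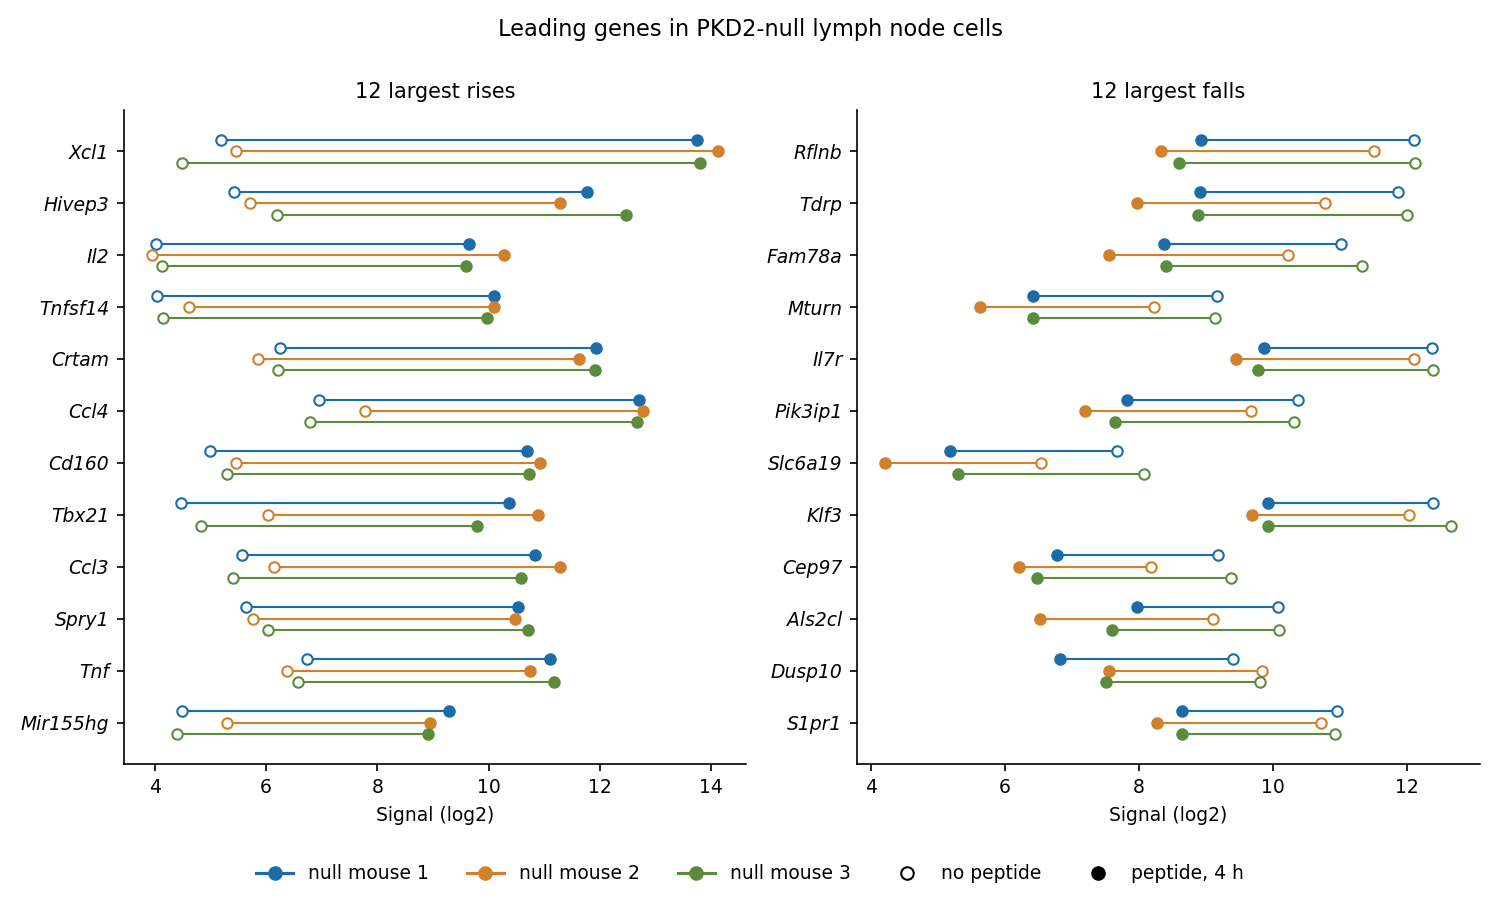
Signal (log2, x axis) of the 12 genes with the largest rise and the 12 with the largest fall in PKD2-null cells, with 1 line per null mouse from the unstimulated array (open circle) to the stimulated array (filled circle). For every gene shown the stimulated signals lie wholly on one side of the unstimulated ones, and null mouse 2 is lowest in both states for every fall shown except Dusp10.

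Genes chosen in the wild-type arrays alone were followed in the null arrays, which took no part in the choice. In the 6 wild-type arrays alone, 2647 genes rose (14.5%) and 3733 fell (20.5%), and 1012 were called with a rise of at least 1 (5.56%) and 1087 with a fall of at least 1 (5.97%). In the 6 null arrays alone 2461 genes rose (13.5%) and 3966 fell (21.8%). Of the 1012 wild-type rises, 990 (97.8%) were also called as rises in the null arrays alone, and 997 went up in all 3 null mice. Of the 1087 wild-type falls, 1083 (99.6%) were called as falls in null cells. The median change of the 1012 rises was 1.53 in wild type, where they were chosen, and 1.28, 1.15 and 1.35 in null mice 1, 2 and 3. For the 1087 falls it was -1.29 in wild type and -1.11, -0.95 and -1.23 in the null mice. The direction of the response was thus shared, and the null medians lay nearer to 0, most so in null mouse 2.

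The choice was then made the other way round. The null arrays alone gave 749 rises of at least 1 (4.12%) and 733 falls of at least 1 (4.03%), of which 743 and 732 were called the same way in the wild-type arrays alone. For the 749 rises the median was 1.46 in null cells, where they were chosen, and 1.82, 1.66 and 1.74 in wild-type mice 1, 2 and 3. For the 733 falls it was -1.24 in null cells and -1.55, -1.50 and -1.29 in the wild-type mice. Whichever genotype chose the genes, the wild-type median was farther from 0 than the null median.

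**Figure D2:**
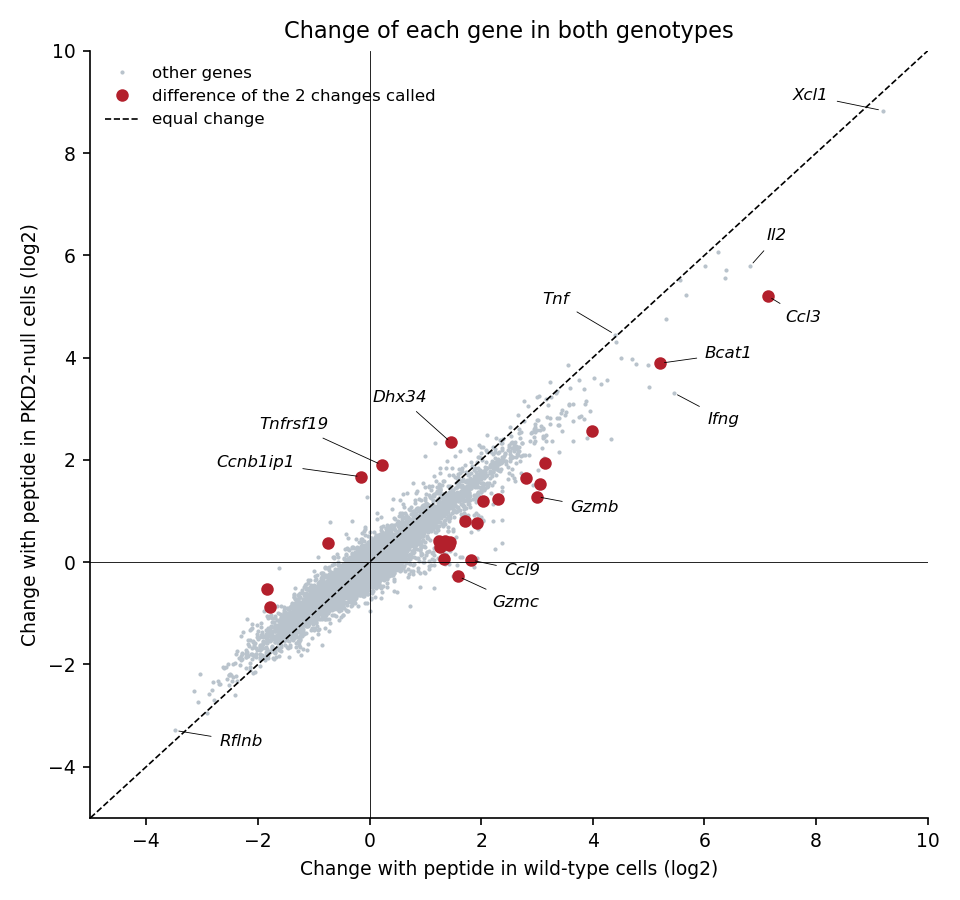
Change with peptide (log2) of 18193 genes in wild-type cells (x axis) and in PKD2-null cells (y axis), 1 point per gene, from the fit of all 12 arrays, with a dashed line of equal change. Red points are the 25 genes whose change differed between the genotypes at an adjusted p under 0.05, of which 19 lie below the line.

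The 95% interval of the null minus wild-type difference was used to find responses of a similar size. It lay within 0.5 either side of 0 for 218 of the 1012 wild-type rises (21.5%) and for 299 of the 1087 falls (27.5%). It lay wholly beyond 0.5 on the side of a smaller null response for 59 rises and 8 falls, and on the side of a larger one for 1 rise. The other 734 rises and 780 falls could not be placed at this precision. With a width of 0.75, 680 rises and 806 falls lay within it. These intervals are not adjusted for the number of genes.

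Among the rises of similar size were inflammatory and inhibitory genes. Tnf changed by 4.45 in null and 4.40 in wild-type cells, a difference of 0.05 (95% interval -0.31 to 0.42). Cd274, the ligand of the inhibitory receptor PD-1, changed by 3.22 against 3.25 (difference -0.03, -0.45 to 0.40). The values for Gfi1, a transcriptional repressor, were 3.19 and 3.17 (0.02, -0.34 to 0.38). Gramd1b, a sterol carrier, changed by 3.56 against 3.76 (-0.20, -0.48 to 0.08) and Lad1 by 3.30 against 3.34 (-0.04, -0.50 to 0.41). The falls of similar size included Tdrp (-0.04, -0.34 to 0.26) and Klf2, a transcription factor of naive and recirculating T cells, with -2.32 in null and -2.37 in wild-type cells (0.05, -0.30 to 0.41). The adaptor gene Sla2 (0.09, -0.25 to 0.43), the calcium channel gene Orai2 (0.17, -0.13 to 0.47) and A930005H10Rik (-0.06, -0.35 to 0.24) were the others named by size.

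The genes of receptor signalling moved in both directions. Of 20 measured receptor and proximal kinase genes (22 listed), 9 rose and 7 fell, against 13.4% and 21.4% of all genes, with a median of 0.15 in null and -0.27 in wild-type cells. Lcp2, which encodes the Slp-76 scaffold, changed by 2.19 ± 0.11, the kinase gene Zap70 by 2.16, and Cd6, a modulator of receptor signalling, by 1.73, while the Tec family kinase gene Txk changed by -1.74 (limma adjusted p of 2.3e-05 or lower for all 4). The receptor chains Cd3d (-0.26, adjusted p = 0.056) and Cd3g (-0.03, adjusted p = 0.86) did not pass the test in null cells. In wild-type cells Cd3d changed by -0.65 and Cd3g by -0.64. The differences of 0.39 (95% interval 0.11 to 0.67) and 0.61 (0.30 to 0.92) were not called (limma adjusted p = 0.30 and 0.17). Of 18 genes of the diacylglycerol and calcium branches (20 listed), 5 rose and 7 fell, also against 13.4% and 21.4%. Malt1, a protease of the NF-kappaB branch, changed by 1.54 and Orai1, the pore of the calcium channel, by 1.19, and Dgka, which consumes diacylglycerol, by -1.40 and Nfatc3 by -1.28. Bcl10 (0.11) and Dgkz (-0.14) did not pass the test. Among the 8 class IIa histone deacetylase and MEF2 genes, whose proteins are known targets of protein kinase D signalling and their partners, Hdac5 (-1.11), Mef2c (-0.81), Mef2d (-0.68) and Hdac4 (-0.35) fell. Hdac7 changed by 0.37 (adjusted p = 0.045), a call lost without any 1 of the null mice, and Mef2a (-0.05) and Mef2b (-0.28) did not pass the test. The 95% interval of the null minus wild-type difference lay above 0 for 5, 6 and 2 genes of these lists. These were 25.0%, 33.3% and 25.0% of the genes measured, against 4.03% of all genes. The interval lay below 0 for 2, 1 and 1 genes (10.0%, 5.56% and 12.5%, against 6.16%), and no difference was called.

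Early transcription factors were induced without PKD2. Of 29 measured genes (30 listed), 22 rose and the other 7 did not pass the test, against 13.4% of all genes, and the median was 1.02 in null and 1.53 in wild-type cells. By mouse the null median was 1.11, 0.96 and 1.37 and the wild-type median 1.45, 1.84 and 1.66, so the groups did not overlap. Tbx21 went from 4.48, 6.04 and 4.84 to 10.37, 10.88 and 9.80 in null mice 1, 2 and 3. Myc, the regulator of growth, went from 8.63, 9.66 and 8.55 to 12.53, 12.57 and 12.55, a change of 3.60 ± 0.18 (limma adjusted p = 1.3e-06). Null mouse 2 started highest for both genes, and its change was the smallest of the 3 (4.84 and 2.91). Nr4a2, an orphan nuclear receptor of the immediate response, changed by 3.35 and Irf4, a regulator of effector differentiation, by 3.15. Hif1a (0.23) and Jund (-0.11) did not pass the test.

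The families of the immediate response were picked out after their values were seen. All 3 NR4A and the 3 measured EGR genes rose in null cells, with Nr4a1 at 3.06, Nr4a3 at 2.83, Egr2 at 3.10, Egr1 at 2.97 and Egr3 at 2.87. Their differences from wild type lay between -0.64 (Egr3) and 0.22 (Nr4a1) and were not called (adjusted p of 0.29 or higher). The 95% interval lay below 0 for Egr1 (-0.81 to -0.15), Egr2 (-0.97 to -0.01) and Egr3 (-1.21 to -0.07). It spanned 0 for the 3 NR4A genes. The AP-1 genes were less even. Fos changed by 1.34 in null and 1.44 in wild-type cells, Fosl1 by 2.37 against 3.65 (difference -1.28, 95% interval -1.81 to -0.74), Jun by 0.81 against 2.03 (-1.22, -1.97 to -0.46) and Atf3 by 1.80 against 3.01 (-1.21, -1.74 to -0.67). The adjusted p of these last 3 differences was 0.12, 0.25 and 0.14, so they were not called either. The Jun change was uneven, with 0.53, 1.72 and 0.19 in null mice 1, 2 and 3. Over the list, 11 of 29 intervals of the difference lay below 0 (37.9%, against 6.16% of all genes) and 0 above it. Irf8 was the member of the list whose difference was called and is described below.

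Feedback inhibitors were mostly higher with peptide. Of 27 measured genes 16 rose and 3 fell, against 13.4% and 21.4% of all genes, and 8 did not pass the test, with a median of 0.73 in null and 0.98 in wild-type cells. Besides Spry1, the regulator of G protein signalling Rgs16 changed by 3.41 ± 0.11 and Cish, a SOCS family inhibitor of cytokine signalling, by 2.63. Nfkbia, the inhibitor of NF-kappaB (0.18, limma adjusted p = 0.17), and Tnfaip3, a brake on the same pathway (-0.22, adjusted p = 0.098), did not pass the test. The DUSP phosphatases of MAP kinases, picked out after their values were seen, split. Dusp6 (2.38), Dusp5 (1.70), Dusp2 (1.59) and Dusp4 (0.73) rose, and Dusp10 (-2.39) and Dusp1 (-1.07) fell. The 95% interval of the null minus wild-type difference lay below 0 for 4 of the 27 genes (14.8%, against 6.16% of all genes). These were Spry1 (-0.55), Cish (-0.47), Spry2 (-1.02) and Rgs1 (-0.91). It lay above 0 for 3, Dusp2 (0.40), Nfkbia (0.30) and Spred2 (0.29) (11.1%, against 4.03%). No difference was called. Spry2, Rgs1 and Spred2 were picked out after their values were seen.

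Secreted T cell products ranged from no call to the largest rises. Of 26 measured cytokine and chemokine genes, 15 rose, against 13.4% of all genes, with a median over the list of 1.44 in null and 1.60 in wild-type cells. Ccl5 changed by -0.55 (adjusted p = 0.016), a call lost without any 1 of the null mice. Il2, the T cell growth factor, had signals of 4.03, 3.95 and 4.14 without and 9.64, 10.27 and 9.59 with peptide in null mice 1, 2 and 3, a change of 5.79 ± 0.19 (limma adjusted p = 1.8e-07). The stimulated wild-type arrays were at 10.66, 10.53 and 10.91, above all 3 stimulated null arrays. The difference of the responses was -1.03 (95% interval -1.64 to -0.42) and was not called (adjusted p = 0.24). Ifng, the gene of interferon gamma, went from 4.71, 5.21 and 4.59 to 7.87, 9.53 and 7.04, a change of 3.31 ± 0.28 (adjusted p = 1.8e-05). Null mouse 2 was the highest in both states and came close to the 9.60 to 10.26 of stimulated wild-type arrays, while null mice 1 and 3 were well below. Without null mouse 2 the change of Ifng was 2.81 (adjusted p = 4.2e-05). With all mice the difference from wild type was -2.14 (-3.02 to -1.26, adjusted p = 0.12).

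Ccl3, a chemokine gene, was the member of this list whose response was called as smaller. It went from 5.57, 6.14 and 5.40 to 10.83, 11.28 and 10.58 in null cells, a change of 5.20 ± 0.15, and reached 13.00, 12.57 and 12.54 in stimulated wild-type cells. The difference was -1.94 (-2.42 to -1.46, limma adjusted p = 0.034). Tnf, by contrast, went from 6.74, 6.37 and 6.58 to 11.11, 10.75 and 11.18 in null cells and reached 10.96, 10.90 and 10.64 in wild type, so the stimulated arrays of both genotypes overlapped. Lta, the gene of lymphotoxin alpha, changed by 3.85 against 3.56 and Tnfsf8, the CD30 ligand, by 1.26 against 1.30. Values for Tnfsf11, the ligand RANKL, were 3.43 against 5.01 (difference -1.58, adjusted p = 0.066), for Lif 2.41 against 4.33 (-1.92, 0.16) and for Il3 0.37 against 2.37 (-2.00, 0.24). Il3 did not pass the test in null cells (adjusted p = 0.57). These 5 genes were picked out after their values were seen. Ltb (0.18) and Osm (-0.25), named for their high signals, did not pass the test in null cells. Over the list, 5 of 26 intervals of the difference lay wholly below -0.5 (19.2%), against 0.335% of all genes.

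The 250 bases before the start of 4 of these genes are shown because the difference of their responses from wild type ran from 0.05 (Tnf) through -0.36 (Xcl1) and -1.03 (Il2) to -1.94 (Ccl3). They are RefSeq sequences of the mouse build GRCm38.p6, given 5′ to 3′ on the strand of the gene, which is the minus strand for all 4. Il2 is chr3:37125955-37126204, Xcl1 chr1:164935523-164935772, Tnf chr17:35202008-35202257 and Ccl3 chr11:83649379-83649628. Capitals mark a match to the NFAT core TGGAAA on either strand.
Il2: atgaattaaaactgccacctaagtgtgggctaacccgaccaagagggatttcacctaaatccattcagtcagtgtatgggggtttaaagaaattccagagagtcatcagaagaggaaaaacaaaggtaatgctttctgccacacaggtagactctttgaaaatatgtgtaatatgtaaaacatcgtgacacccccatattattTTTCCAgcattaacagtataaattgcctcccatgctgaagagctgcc
Xcl1: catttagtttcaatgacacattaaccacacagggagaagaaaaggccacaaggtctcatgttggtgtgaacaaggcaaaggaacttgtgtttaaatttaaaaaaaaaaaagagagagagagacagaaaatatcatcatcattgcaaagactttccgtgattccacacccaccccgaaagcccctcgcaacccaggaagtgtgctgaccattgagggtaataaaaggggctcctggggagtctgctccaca
Tnf: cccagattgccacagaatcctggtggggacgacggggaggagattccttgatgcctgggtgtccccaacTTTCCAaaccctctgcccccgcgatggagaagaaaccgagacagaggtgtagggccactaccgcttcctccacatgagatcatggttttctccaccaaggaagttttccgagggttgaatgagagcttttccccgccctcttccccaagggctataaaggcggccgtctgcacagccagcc
Ccl3: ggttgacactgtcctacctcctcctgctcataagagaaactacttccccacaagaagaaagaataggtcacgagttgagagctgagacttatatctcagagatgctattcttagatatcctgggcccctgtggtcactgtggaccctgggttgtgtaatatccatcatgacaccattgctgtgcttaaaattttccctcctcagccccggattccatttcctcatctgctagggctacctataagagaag

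The search covered 5 motifs on both strands, AP-1 (TGANTCA), NFAT (TGGAAA), NF-kappaB (GGGANTTTC), the E-box (CACGTG) and an interferon response element (TTTCNNTTT). Il2 held 1 NFAT match at -47 to -42 and Tnf 1 at -181 to -176 relative to the start, both on the opposite strand, and the windows of Xcl1 and Ccl3 held no match to these letters. Among the 50 largest rises in null cells, 41 had a promoter in the table. Of these, 19.5% held the NFAT letters and 7.32% the AP-1 letters, against 16.2% and 5.58% of 14452 promoters of genes on the array. For the interferon response element the shares were 7.32% and 7.78%. For the 37 promoters of the 50 largest falls, the shares were 16.2% for NFAT and 5.41% for the E-box, against 16.2% and 7.56% overall. A match describes the letters of this window and is not a binding site, and its absence says nothing about the factor.

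**Figure D3:**
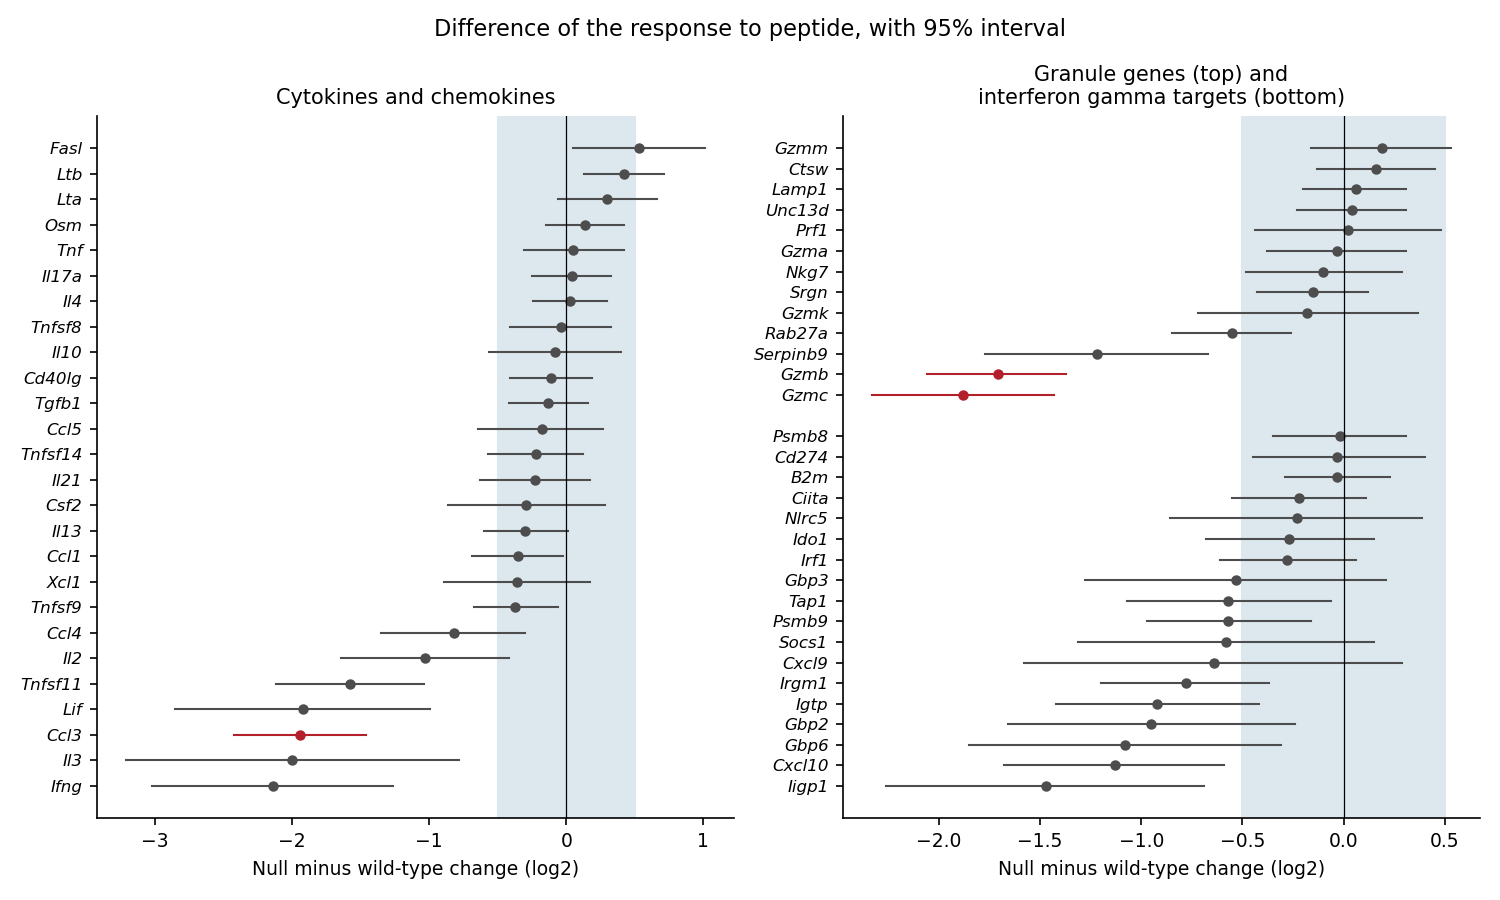
Null minus wild-type difference of the change with peptide (log2, x axis), with its 95% interval, for the cytokine and chemokine genes (left) and the cytotoxic granule genes and interferon gamma targets (right). Red marks differences called at an adjusted p under 0.05 (Ccl3, Gzmb and Gzmc), the shaded band spans 0.5 either side of 0, and Tnf, Prf1 and Cd274 have intervals inside it.

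Cytotoxic granule genes divided by member. Of 13 measured genes 5 rose and 2 fell, against 13.4% and 21.4% of all genes, with a median of 0.12 in null and 0.56 in wild-type cells. The median by mouse was -0.04, 0.24 and 0.12 in null and 0.51, 0.61 and 0.55 in wild-type cells. Prf1, the gene of the pore-forming protein perforin, changed by 1.63 in null and 1.61 in wild-type cells (difference 0.02, -0.44 to 0.48), and Nkg7, a granule membrane protein, by 1.47 against 1.56. Gzmb, the protease granzyme B, went from 5.17, 6.20 and 5.16 to 6.50, 7.69 and 6.19 in null mice 1, 2 and 3, a change of 1.28 ± 0.11 (limma adjusted p = 1.9e-05). The stimulated wild-type arrays were at 8.65, 8.34 and 8.67, above all null arrays, and the difference was -1.71 (-2.06 to -1.37, adjusted p = 0.016). Gzmc was at 5.08, 4.10 and 4.11 without and 4.44, 4.13 and 3.86 with peptide in null cells and did not pass the test (-0.28, adjusted p = 0.19), against a wild-type change of 1.59 (difference -1.88, -2.33 to -1.43, adjusted p = 0.034). All of these null signals but that of unstimulated null mouse 1 lay below the array medians. Whether they are above background was not examined. Unc13d, a granule release factor, fell by 0.74, and Lamp1 (-0.12) and Ctsw (-0.27) did not pass the test. Gzma, chosen after its values were seen, fell by 0.70 in null and 0.66 in wild-type cells.

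Receptors of activated T cells rose for the most part. Of 26 measured genes (27 listed) 18 rose and 4 fell, against 13.4% and 21.4% of all genes, and the median was 1.02 in null and 1.23 in wild-type cells. By mouse it was lowest in null mouse 2 (0.50), against 1.19 to 1.32 in the wild-type mice. Il2ra, the high-affinity chain of the interleukin-2 receptor, went from 5.51, 5.79 and 5.44 to 9.73, 9.53 and 9.44, a change of 3.99 ± 0.13 (limma adjusted p = 1.4e-07). The 3 stimulated wild-type arrays were at 10.15, 10.12 and 10.32, slightly higher, with a difference of -0.52 (-0.91 to -0.12) that was not called (adjusted p = 0.33). Tnfrsf9, the costimulator 4-1BB, changed by 3.88 against 4.77. Tnfrsf4 (0.17) and Havcr2 (-0.13) did not pass the test. Among members picked out after their values were seen, Cd69, an early activation antigen, changed by 2.42 in null and 2.26 in wild-type cells, Pdcd1, the gene of PD-1, by 2.22 and 2.24, and Cd44, an adhesion receptor of activated cells, by 0.60 and 1.49 (difference -0.89, adjusted p = 0.065).

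The program of the naive state was lowered without PKD2. Of 26 measured genes (28 listed) 22 fell, against 21.4% of all genes, and Gimap5 rose (0.66). The median was -1.23 in null and -1.37 in wild-type cells, and by mouse -1.35, -1.01 and -1.33 against -1.54, -1.38 and -1.17, so the genotypes overlapped. Il7r, Pik3ip1, Klf3 and S1pr1, given above, changed most. The intervals of the difference of Klf2, Foxo1 (-0.97 in null cells), which drives homing and survival genes, and Ccr7 (-1.22), the receptor for entry into lymph nodes, lay within 0.5 of 0, as did those of 8 other members (11 of 26, or 42.3%, against 63.5% of all genes). Foxo1 and Ccr7 were picked out after their values were seen. Btg1 (-0.10) and Gimap4 (0.22) did not pass the test. Both the list and the B cell markers moved downward with peptide, and 10 of 11 B cell markers fell in null cells, with a median of -0.57 against -0.69 in wild type.

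Genes for building ribosomes rose as a block. All 27 measured ribosome biogenesis genes (28 listed) were called as rises in null cells, against 13.4% of all genes, with a median of 1.90 against 2.16 in wild-type cells. By mouse the median was 1.90, 1.72 and 2.06 in null and 2.23, 2.14 and 2.16 in wild-type cells. Nolc1, a nucleolar chaperone, went from 8.78, 9.09 and 8.59 to 11.45, 11.36 and 11.41 in null mice 1, 2 and 3, a change of 2.59 ± 0.11 (limma adjusted p = 6.1e-07). Its stimulated null arrays lay just below the 11.47 to 11.67 of wild type. Polr1b, a subunit of RNA polymerase I, changed by 2.54, Rrp12 by 2.53 and Gnl3, the nucleolar protein nucleostemin, by 2.52. The null change was below the wild-type change for all 27 genes, with differences from -0.52 to -0.05, while 44.8% of all genes had a difference above 0. These differences were not called (adjusted p of 0.26 or higher), and 11 of the 27 intervals lay below 0 (40.7%, against 6.16% of all genes). The E-box letters were held by 4.55% of the 22 genes with a promoter given by RefSeq, against 7.56% of all promoters.

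Other growth genes followed the same course. Of 18 aminoacyl-tRNA synthetase genes (20 listed) 16 rose, against 13.4% of all genes, with a median of 0.98 in null and 1.26 in wild-type cells, led by Rars (1.58), Tars (1.52), Iars (1.46) and Yars (1.46), while Sars did not pass the test (0.01). Qars changed by -0.37 (limma adjusted p = 0.01), a call lost without null mouse 2. Of 24 genes of serine, 1-carbon, nucleotide and polyamine synthesis (26 listed) 20 rose, with medians of 1.49 and 1.82. The polyamine genes among them are Srm and Odc1 (0.73). Srm, which makes spermidine, changed by 3.48 ± 0.13, Ctps, which makes cytidine triphosphate, by 2.81, Psat1 of serine synthesis by 2.49 and Pfas of purine synthesis by 2.32, while Paics (0.22) and Prps1 (0.13) did not pass the test. Of 18 genes of mitochondrial import and chaperones (19 listed) 17 rose, with medians of 1.16 and 1.41, led by Timm8a1 (2.44), Timm9 (2.16), Timm10 (1.98) and Hspd1 (1.83), and Tomm22 did not pass the test (0.17). Of 19 chaperones of the cytosol and the endoplasmic reticulum (20 listed) 16 rose, led by Hsph1 (2.05), Cct6a (1.25), Cct3 (1.21) and Stip1 (1.18). Dnaja1 (0.13) and Hsp90b1 (0.00) did not pass the test. Hsp90b1, Hspa5 (1.12) and Pdia4 are the members of the endoplasmic reticulum. The fall of Pdia4 (-0.29) was lost without any 1 of the null mice.

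Nutrient uptake, glycolysis and sterol synthesis were less uniform. Of 14 amino acid and iron uptake genes 7 rose, against 13.4% of all genes, led by Tfrc, the transferrin receptor (2.82), and the amino acid transporters Slc7a5 (2.77), Slc7a1 (2.34) and Slc1a5 (1.77), while Slc38a2 (-0.10) and Slc6a6 (-0.10) did not pass the test. Of 16 glycolysis genes (19 listed) 8 rose, with medians of 0.36 in null and 0.48 in wild-type cells. Hk2, an inducible hexokinase, changed by 2.57 in null and 3.44 in wild-type cells (difference -0.87, limma adjusted p = 0.17), the lactate transporter gene Slc16a1 by 2.40 and 2.39, Pgam1 by 1.55 and Ldha by 1.40. Pkm (0.19) and Slc2a1 (0.06) did not pass the test. Of 18 sterol synthesis and uptake genes (21 listed) 11 rose, with medians of 0.56 in null and 0.45 in wild-type cells, led by Cyp51 (2.17), Idi1 (2.04), Sqle (1.85) and Hsd17b7 (1.55), and Fdft1 (0.32) and Nsdhl (-0.11) did not pass the test. Each of these lists had 1 called fall. That of Slc11a2 (-0.40) and that of Hk1 (-0.47) were lost without null mouse 1 and without null mouse 3, and the sterol list had 3 falls in place of Srebf1 (-0.54) alone without null mouse 1.

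**Figure D4:**
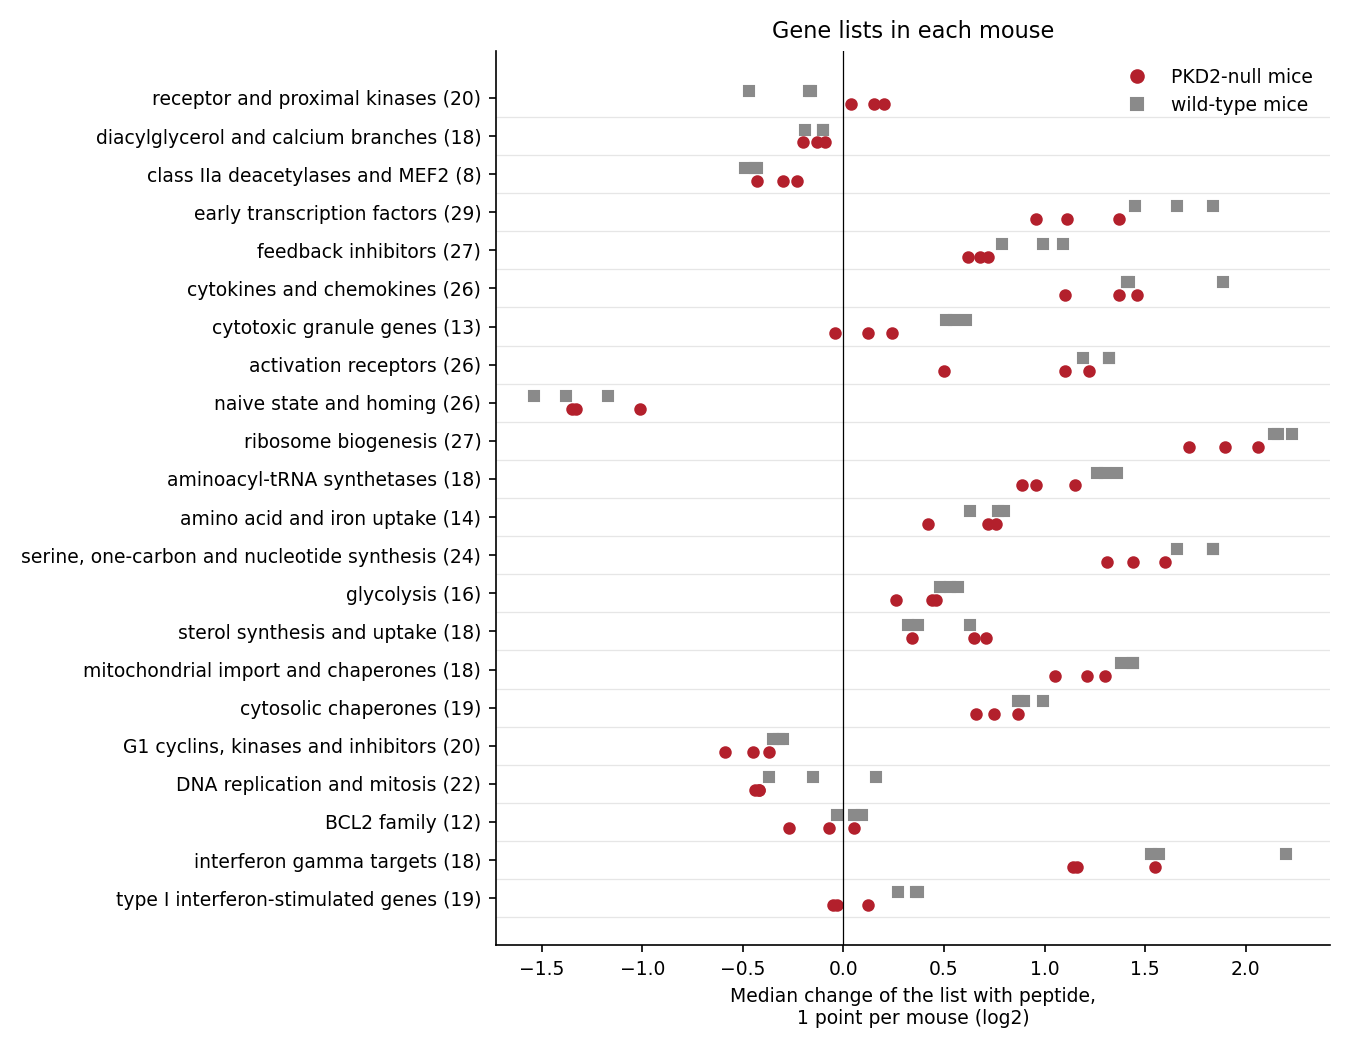
Median change with peptide (log2, x axis) of the measured genes of each list, with 1 point per mouse, PKD2-null mice as red circles and wild-type mice as grey squares, and the number of genes in brackets. Ribosome biogenesis lies at 1.72 to 2.06 in null and 2.14 to 2.23 in wild-type mice, and the naive state list is the lowest, at -1.35 to -1.01 in null mice. The list labelled cytosolic chaperones also holds members of the endoplasmic reticulum, and the serine and nucleotide list also holds the polyamine genes Srm and Odc1.

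Cell cycle genes moved in both directions. Of 20 G1 cyclins, kinases and inhibitors 6 rose and 11 fell, against 13.4% and 21.4% of all genes. Ccnd2, the cyclin D2 of G1, went up by 3.25 ± 0.11 in null and 3.04 in wild-type cells, and the inhibitors Cdkn1b (-1.84) and Cdkn2d (-1.77) and the quiescence cyclin gene Ccng2 (-1.91) fell. Ccnd1 (0.09) and E2f2 (-0.44, limma adjusted p = 0.05) did not pass the test. Cdkn1a, the inhibitor p21, chosen after its values were seen, changed by 1.58 in null and 2.61 in wild-type cells (difference -1.03, adjusted p = 0.056). Of 22 DNA replication and mitosis genes (23 listed) 15 fell in null cells, against 21.4% of all genes, with a median of -0.44. In wild type 5 fell, close to the 22% of all genes there, with a median of -0.05. By mouse the median was -0.44, -0.42 and -0.42 in null and -0.37, 0.16 and -0.15 in wild-type cells. Mcm7 changed by -0.87, the mitotic kinase gene Aurkb by -0.79, Rrm2 of nucleotide reduction by -0.77 and Birc5 by -0.73, Pcna rose (0.68), and Mcm2 (0.21) and Mcm5 (0.14) did not pass the test. The count of 15 dropped to 6, 8 and 5 without null mouse 1, 2 or 3 and to 4 without the block for the mouse, and the differences from wild type were not called (adjusted p of 0.24 or higher). Plasma cell markers also fell, 4 of 6 with a median of -0.53, and myeloid markers, 6 of 11 with a median of -0.36, and their part in the result was not tested.

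Survival genes changed in both directions. Of 12 measured BCL2 family genes (16 listed) 3 rose and 5 fell, against 13.4% and 21.4% of all genes, and without null mouse 3 the falls were 3. Bcl2 (1.84), Bcl2l1, the gene of Bcl-xL (1.55), and Bid (1.04) rose and Bmf, a death-promoting member, fell by 0.82, while Mcl1 (0.09) and Bak1 (-0.16) did not pass the test.

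Most measured targets of interferon gamma rose in null cells. Of 18 genes (19 listed) 11 rose and 2 fell, against 13.4% and 21.4% of all genes, with a median of 1.18 in null and 1.79 in wild-type cells. Without null mouse 3 the falls were 1, and without null mouse 2 the rises were 10 and the median 1.15. The null median by mouse was 1.14, 1.55 and 1.16, highest in null mouse 2, which also had the highest Ifng signal, and the wild-type medians were 1.57, 1.53 and 2.20. Cxcl10, a chemokine for activated T cells, changed by 3.86 ± 0.17 in null and 4.99 in wild-type cells (difference -1.13, -1.68 to -0.59). Values for the interferon-inducible GTPase Iigp1 were 2.42 and 3.89 (-1.47, -2.26 to -0.69), and those for Irgm1 2.37 and 3.16 (-0.78, -1.20 to -0.37). The adjusted p of these differences was 0.16, 0.21 and 0.21. Every one of the 18 null changes was below the wild-type change, with differences from -1.47 (Iigp1) to -0.02 (Psmb8). Over all genes, 44.8% had a difference above 0. Of the 18 intervals, 8 lay below 0 (44.4%, against 6.16% of all genes). B2m (0.02) and Tap1 (0.16) did not pass the test.

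Type I interferon-stimulated genes were mostly not called in null cells. Of 19 measured genes (21 listed) 4 fell, 14 did not pass the test and Isg20 was called as a rise (0.38, limma adjusted p = 0.023, lost without any 1 of the null mice), near or below the 21.4% and 13.4% of all genes that fell and rose. In wild-type cells 9 rose and 3 fell, against 16.3% and 22% of all genes there. The median was -0.02 in null and 0.34 in wild-type cells, with -0.05, 0.12 and -0.03 against 0.37, 0.27 and 0.36 by mouse. Ifit2 changed by -1.32, Ddx58, which senses viral RNA, by -0.70 and Trim30a by -0.49, and Bst2 (0.08) and Xaf1 (-0.21) did not pass the test. The wild-type changes of Ifit2 (-1.04), Ddx58 (-0.73) and Trim30a (-0.47) were similar. The count of 4 falls was 2 without null mouse 1 and 2 without null mouse 3. Oasl2, of the oligoadenylate synthetase family, was at 4.01, 3.92 and 3.33 without and 3.53, 4.06 and 3.55 with peptide in null cells (-0.03), against a change of 1.36 in wild type (difference -1.40, -1.88 to -0.92, adjusted p = 0.065). Its null signals lay below the array medians, and whether they are above background was not examined. The differences of the 19 genes were not called (limma adjusted p of 0.065 or higher), and 4 of the 19 unadjusted intervals lay wholly below -0.5 (21.1%), against 0.335% of all genes.

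The response to peptide differed between the genotypes for 25 genes at an adjusted p under 0.05, 6 with a higher value in null cells (0.033%) and 19 with a lower one (0.104%), and 1928 genes (10.6%) had an unadjusted p under 0.05. The count of 25 fell whichever mouse was left out, and the cause was not tested. Without null mouse 1, 2 or 3 the count was 0, 4 and 2 (1339 genes at an unadjusted p under 0.05 in limma without null mouse 1), and without wild-type mouse 1, 2 or 3 it was 7, 3 and 1. All 25 differences kept their sign in each of these fits. Without the block for the mouse 1 of the 25 was called. The 19 lower genes all rose in wild-type cells. In null cells 16 of them also rose, and Ccl9, Gzmc and Slc16a10 did not pass the test.

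Irf8, a transcription factor of myeloid, B and activated T cells, was the most highly expressed of these genes. It went from 9.17, 9.95 and 9.08 to 11.24, 11.92 and 10.84 in null mice 1, 2 and 3, a change of 1.93 ± 0.098, against 3.15 in wild-type cells (difference -1.22, -1.54 to -0.91, limma adjusted p = 0.034). Null mouse 2 was highest in both states and reached the wild-type range of 11.91 to 12.16, but its change of 1.97 lay between those of the other null mice. A further probe set of Irf8 gave 2.02 against 3.05 (difference -1.03, adjusted p = 0.046). Swap70, which acts in B cells and in actin remodelling, changed by 0.40 against 1.44, with 0.39 against 1.47 at its other probe set. Cd40, the costimulatory receptor of B cells and antigen-presenting cells, changed by 0.80 against 1.71 (difference -0.92). These genes are also expressed outside T cells, B cell markers were higher in null arrays as given above, and the part of cell proportions in the result was not tested.

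Surface and secreted products made up another part of the lower genes. Ccl9, a chemokine gene, was at 5.88, 6.01 and 5.78 without and 5.93, 6.27 and 5.59 with peptide in null cells (0.04, limma adjusted p = 0.89). In wild-type cells it changed by 1.82, and the difference was -1.78 (-2.23 to -1.32, adjusted p = 0.034). The death receptor gene Tnfrsf21 changed by 1.52 against 3.05, although a dimmer probe set gave 0.61 against 0.98 with a difference that was not called (adjusted p = 0.33). Slamf7, a receptor of the SLAM family, changed by 2.56 against 3.99. The branched-chain amino acid transaminase gene Bcat1 changed by 3.89 against 5.21 and the aromatic amino acid transporter gene Slc16a10 by 0.07 against 1.33. Chsy1 (0.77 against 1.93) and Chst11 (0.29 against 1.27) both act in chondroitin sulfate synthesis. The other lower genes were Zeb2 (0.33 against 1.42), Marcksl1 (1.24 against 2.30), 3110082I17Rik (1.65 against 2.81), Prelid2 (1.20 against 2.04), Nudt4 (0.41 against 1.36) and Tmem38b (0.41 against 1.24).

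Of the 6 genes with a higher value in null cells, Ccnb1ip1 and Tnfrsf19 rose in null cells and did not pass the test in wild type. Ccnb1ip1, a ubiquitin ligase gene known from meiosis, went from 4.59, 4.39 and 4.42 to 6.30, 6.03 and 6.09 in null mice 1, 2 and 3, and its wild-type arrays lay between 3.53 and 4.30 in both states. The change was 1.67 ± 0.12 in null and -0.15 in wild-type cells (difference 1.82, 1.45 to 2.18, limma adjusted p = 0.016). Tnfrsf19, a TNF receptor family member, went from 3.82, 4.22 and 4.10 to 6.03, 5.57 and 6.22 and stayed at 4.25 to 4.45 in stimulated wild-type cells (difference 1.68, adjusted p = 0.049). For both genes the unstimulated null and stimulated wild-type signals lay below the array medians. Whether they are above background was not examined. Further probe sets of Tnfrsf19 gave 3.30 against 0.38 (difference called, adjusted p = 0.034) and, at a lower signal, 0.28 against 0.02 (not called, adjusted p = 0.52). Celsr1, a cadherin of planar polarity, went up in all 3 null mice (0.46, 0.36 and 0.30) and down in all 3 wild-type mice (-0.69, -0.96 and -0.58), and the rise in null cells lost its call without null mouse 1 or null mouse 2. Dhx34, an RNA helicase of nonsense-mediated decay, changed by 2.34 in null and 1.46 in wild-type cells. The cytoskeletal linker gene Plec (-0.88 against -1.78) and Prkd2 itself (-0.52 against -1.84) fell less in null cells, and the null fall of Prkd2 lost its call without null mouse 1. Prkd2 encodes the protein missing in null mice, and its null signal was already low before peptide. Its smaller fall therefore cannot be read as an altered response to peptide.

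**Figure D5:**
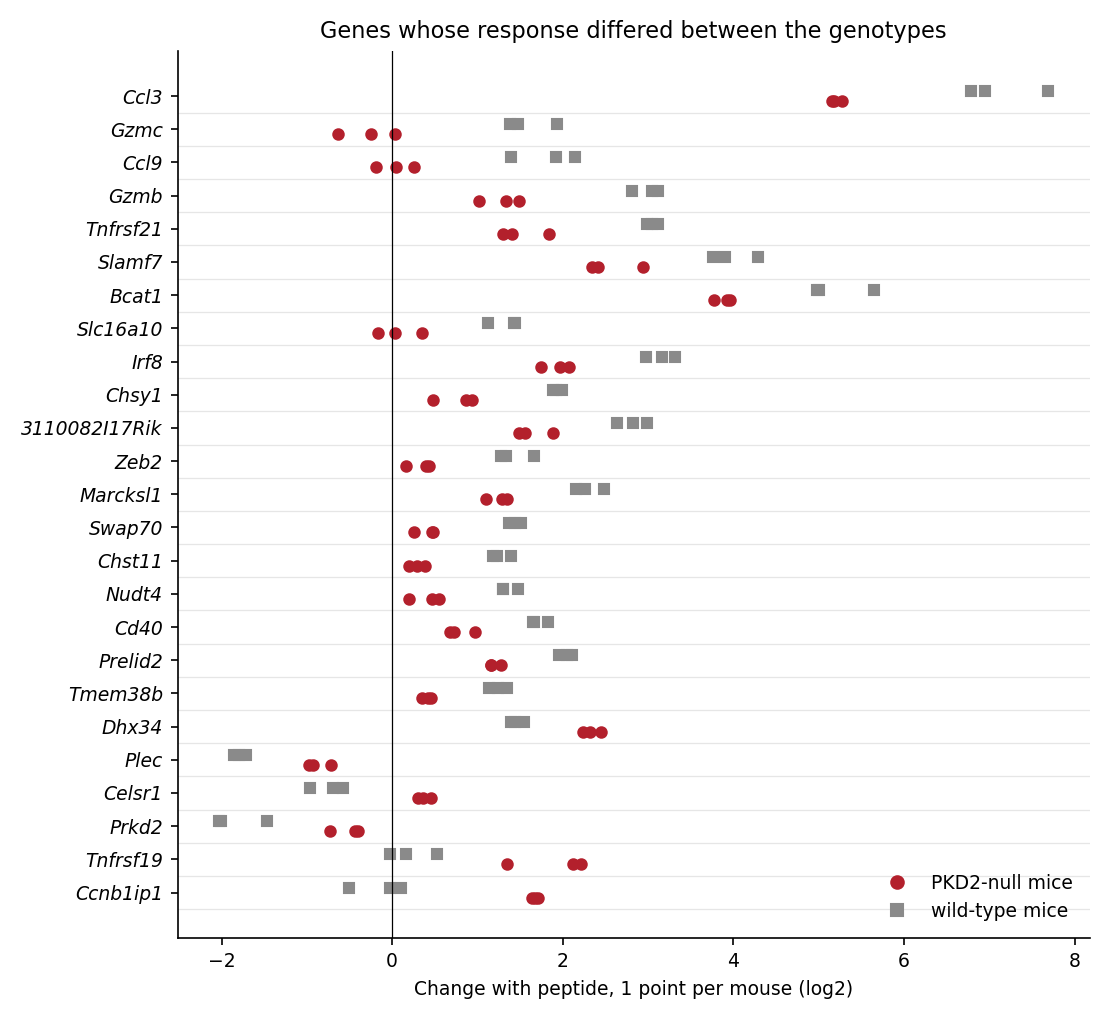
Change with peptide (log2, x axis) of the 25 genes whose response differed between the genotypes, with 1 point per mouse, PKD2-null mice as red circles and wild-type mice as grey squares. The genes are ordered from the most negative difference (Ccl3, -1.94) to the most positive (Ccnb1ip1, 1.82), and the null points of Gzmc, Ccl9 and Slc16a10 lie around 0.

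Some genes were called in null cells and not in wild type, which by itself does not show that the responses differ. Besides Tnfrsf19 and Ccnb1ip1, the largest such rises were Iffo2 (1.28 in null and -0.05 in wild-type cells, difference 1.33, limma adjusted p = 0.055), the drug efflux transporter gene Abcb1b (1.24 and 0.42, 0.26) and Bcl6, a transcriptional repressor (1.04 and 0.41, 0.35). The largest such falls were Cyp2s1 (-1.07), Nusap1 (-0.95), Ifit1bl1 (-0.95), Cdca5 (-0.94) and Gk5 (-0.89), with adjusted p of the difference between 0.17 and 0.57. In the opposite case, of genes that changed by at least 1 in the wild-type arrays alone, those with a null change nearest to 0 were Cd24a (0.02), Oasl2 (-0.03), Ccl9 (0.04), Pkib (0.07) and Slc16a10 (0.07) among the rises. Cd24a, a surface glycoprotein of B cells and immature cells, was at 10.56, 11.36 and 10.75 without and 10.81, 10.99 and 10.92 with peptide in null cells, with a difference of -1.05 (adjusted p = 0.12). The Pkib signal went up in null mouse 2 (0.99) and down in null mice 1 and 3 (-0.27 and -0.52). Among the falls they were Srpk2, a kinase of splicing factors (-0.11 against -1.63, difference 1.52, adjusted p = 0.08), the nuclear noncoding RNA Malat1 (-0.18), Pgpep1l (-0.34), Dse (-0.34) and Zfp267 (-0.41), whose differences were not called either. The Srpk2 changes were 0.39, 0.00 and -0.71 in null mice 1, 2 and 3 and -1.69, -1.74 and -1.45 in the wild-type mice, so the spread among null mice was the wider. The fall of Dse was called (adjusted p = 0.047) and lost without null mouse 1 or null mouse 3.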

How the data were processed

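RNA of 12 lymph node suspensions was measured on 1-colour expression arrays, 1 array per sample. The deposited values are log2 signals per probe set. Expression Console 1.1 is named per the submitters' processing notes, with no normalization named (not given in the sources used here). Array medians were 4.66 to 4.72. Control probe sets (64) were left out, and 45037 were tested with limma 3.58.1 in R 4.3.3 on all 12 arrays with the mouse as a block, with Benjamini-Hochberg adjustment over all of them. Of these, 34945 have 1 gene symbol and 932 several. Each of 18193 genes is given by its probe set of highest mean signal. The labels give the mouse, and the deviations of its 2 arrays correlated at 0.417, 0.577 and 0.438 in null and 0.402, 0.116 and 0.331 in wild-type mice. For wild-type mouse 2 the stimulated array correlated at 0.129 with the unstimulated array of another wild-type mouse, slightly above its own pair. The values thus do not single out its own pair. For each other mouse the own pair was the highest. The p-values and standard errors rest on the within-mouse spread pooled over 3 mice of each genotype, moderated by limma. In the fit of all 12 arrays this spread had 4 residual and 5.32 prior degrees of freedom. The number of mice limits the precision. The 2 genotypes share no arrays.

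The members and gene lists were chosen with earlier results of these data known. Genes were named by rule: Il2, Ifng and the 3 protein kinase D genes, then the 12 largest rises and falls in null cells that went the same way in all 3 null mice, and from every list the called members of largest change (at most 4) and those not called of highest signal (at most 2). The rule adds the 10 smallest p of the difference and the largest called differences up to 10 a direction. It adds, in each direction, 5 genes called in null cells only, 5 of wild-type change at least 1 with a null change nearest 0, and 5 of similar response. The remaining differing genes, single members that make up a small count (Hdac4, Ccl5, Gimap5, Qars, Pdia4, Slc11a2, Hk1, Srebf1, Pcna) and those so marked in the text were chosen after their values were seen. Alternatives were no block, a random block, the null arrays alone, other scalings, a signal filter, another prior, the mean of all probe sets and leaving out each mouse. The fit was tested on simulated data.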

Additional observations from a re-analysis of the deposited data

Results flagged for a closer look

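The change with peptide differed between null and wild-type cells, by the interaction term of limma with Benjamini-Hochberg adjustment, for the 25 genes described above. The null minus wild-type difference (log2) was below 0 for Ccl3 (-1.94), Gzmc (-1.88), Ccl9 (-1.78), Gzmb (-1.71), Tnfrsf21 (-1.53), Slamf7 (-1.42), Bcat1 (-1.32), Slc16a10 (-1.26), Irf8 (-1.22), Chsy1 (-1.16), 3110082I17Rik (-1.16), Zeb2 (-1.09), Marcksl1 (-1.06), Swap70 (-1.04), Chst11 (-0.97), Nudt4 (-0.95), Cd40 (-0.92), Prelid2 (-0.84) and Tmem38b (-0.84). It was above 0 for Ccnb1ip1 (1.82), Tnfrsf19 (1.68), Prkd2 (1.32), Celsr1 (1.12), Plec (0.91) and Dhx34 (0.88).

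Some further probe sets of these genes gave no called difference. They were Ccl9 (-1.74, adjusted p = 0.11), Bcat1 (-0.98, 0.27 and -0.13, 0.9), Chst11 (-0.55, 0.36), Tnfrsf21 (-0.37, 0.33), Plec (0.56, 0.21 and 0.39, 0.57), Tnfrsf19 (0.26, 0.52) and Prkd2 (1.25, 0.13, then 0.4, 0.47 and 0.33, 0.66), each with the sign of the called one. Those of Slc16a10 gave -0.65 (0.26), -0.23 (0.74) and, with the opposite sign, 0.1 (0.92). The unstimulated signal of Prelid2 was 5.07 in null mouse 1 and 7.54 and 7.44 in null mice 2 and 3.

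Nfkbia and Ltb went up in all 3 null mice, each with a change of 0.18, and down in all 3 wild-type mice. Neither change passed the test in null cells. The difference was not called for Nfkbia (limma adjusted p = 0.41) or Ltb (0.28).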

How the results depend on the processing

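No called result changed its sign under any alternative that was run. The 2429 rises and 3896 falls in null cells ranged from 1909 to 2512 and from 3130 to 4043 when 1 mouse was left out. With each array centred on its 75th percentile, 3026 rose and 3296 fell, so that 47.9% of called genes were higher in place of 38.4%, and the median over all genes moved to 0.059.

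The count of 25 differing genes was the least stable. Without the replicate block for the mouse 1 gene was called (1402 at an unadjusted p under 0.05), and 2268 genes rose and 3456 fell in null cells, of which 2217 and 3409 were also called with the block. With the block as a random effect 5 genes differed, of which 3 were among the 25. The count was 0 among probe sets at or above the median signal (limma, 1608 at an unadjusted p under 0.05), 121 with a prior variance that follows the mean signal and 43 with the mean of all probe sets of a gene. Leaving out 1 mouse gave 0 to 7. The 517 responses of similar size became 1486 with a width of 0.75 and 369 without the block. The cause of these shifts was not tested. Only 3 mice a genotype and 4 residual degrees of freedom limit the precision of the differences.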

Other observations

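Some of the 25 genes whose response differed lie close together in the genome. In the gene order of RefSeq (GRCm38.p6), Gzmb and Gzmc are adjacent, Ccl3 and Ccl9 have 1 coding gene between them, and Prkd2 and Dhx34 have 16. These 3 pairs were all those with at most 20 coding genes between them. Prkd2 encodes the protein missing in null mice, and the limit given above for its difference holds here too. Both members of each pair differed in the same direction. Whether this is more than for other genes was not tested.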
